A study of Mus musculus with 18 samples.

Results

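Interferon-induced genes are switched on when a cell receives an interferon signal, and they encode proteins that sense, block or degrade the nucleic acids and proteins of an intruder. The 54 genes described here were given by symbol, as effectors and sensors without the interferon regulatory factors, the antigen presentation genes and the chemokines. All 54 were found by symbol among the 57010 genes of the deposited count table, and all 54 passed the filter on low counts that left 15528 genes for testing. They were measured by bulk RNA sequencing of CD11b+ brain cells of male mice of wild-type genotype, after Ly6G+ cells (neutrophils) had been removed with beads. Such cells are mainly microglia, the resident macrophages of the brain, and after injury also macrophages that come from blood monocytes.

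The 6 groups had 3 libraries each. Young mice were 2 to 4 months old and aged mice 18 to 20 months old. Groups without stroke were young vehicle, young bexarotene, aged vehicle and aged bexarotene. In the other groups, aged stroke vehicle and aged stroke bexarotene, aged mice had an ischemic stroke by occlusion of the middle cerebral artery (MCAo). Bexarotene activates the retinoid X receptor (RXR), a nuclear receptor for lipids. It was injected into the peritoneum at 5 mg/kg from 24 hours after surgery and then daily. The vehicle was 3% DMSO in saline, and all 6 groups carry the time label day 3. The labels do not say which surgery the groups without stroke underwent. They call the libraries biological replicates but do not say whether each came from 1 mouse, so p-values measure the spread between these libraries.

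Library totals were 7582511 to 11852638 counts without stroke and 16206144 to 29359943 counts with stroke. The 6 stroke libraries stood apart from the 12 others along the main axis of variation, which took 56.6% of the variance. Microglial markers were abundant everywhere, with a summed level of 10 markers of 38446 to 55794 CPM without stroke and 17327 to 21834 CPM with stroke. CPM here are counts scaled to 1000000 per library, with the library total adjusted by TMM factors. The summed level of 10 choroid plexus markers was highest in the library numbered 1 in 5 of the 6 groups, at 1833 to 3321 CPM, against 145 to 1189 CPM in the libraries numbered 2 or 3. In aged stroke bexarotene it was 641, 145 and 738 CPM in libraries 1 to 3.

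Type I interferons bind a receptor on the cell surface, whose Janus kinases phosphorylate transcription factors, STAT2 among them. These enter a complex that binds the interferon-stimulated response element (ISRE) in promoters, and type II interferon acts largely through another element, the gamma-activated site (GAS). In microglia, interferon-induced genes are known as part of the response to ageing and to injury.

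Per kilobase of exon, the scale on which levels of different genes are compared here, the highest mean in young vehicle libraries was that of Ly6e, a membrane protein, at 277 CPM per kb. Lgals3bp, a secreted glycoprotein, followed at 60.2 CPM per kb and Bst2, the tetherin that holds virus particles at the cell surface, at 48.5 CPM per kb. The lowest was Ifi44 at 0.105 CPM per kb. In aged stroke vehicle libraries the order was another, with Ifitm3, a restriction factor of endosomes, at 1445 CPM per kb, Ifi27l2a at 736 CPM per kb and Ly6e at 573 CPM per kb.

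Across the 6 groups, 47 of the 54 members had their highest mean in aged stroke vehicle, 6 in aged stroke bexarotene and 1, Gbp7, in young vehicle. The lowest mean was in young vehicle for 40 members and in young bexarotene for 10. The median over the members of the log2 ratio to the young vehicle mean (with 0.5 CPM added) was -0.24, 0.02 and 0.17 in the young vehicle libraries. It was 0.07, 0.16 and 0.24 in young bexarotene, 0.80, 0.57 and 0.88 in aged vehicle and 0.97, 0.63 and 0.61 in aged bexarotene. In stroke libraries it was 3.63, 3.48 and 3.28 with vehicle and 3.04, 3.49 and 3.26 with bexarotene. The libraries thus lay in 3 steps by age and stroke, and within each step the vehicle and bexarotene libraries overlapped.

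**Figure D1:**
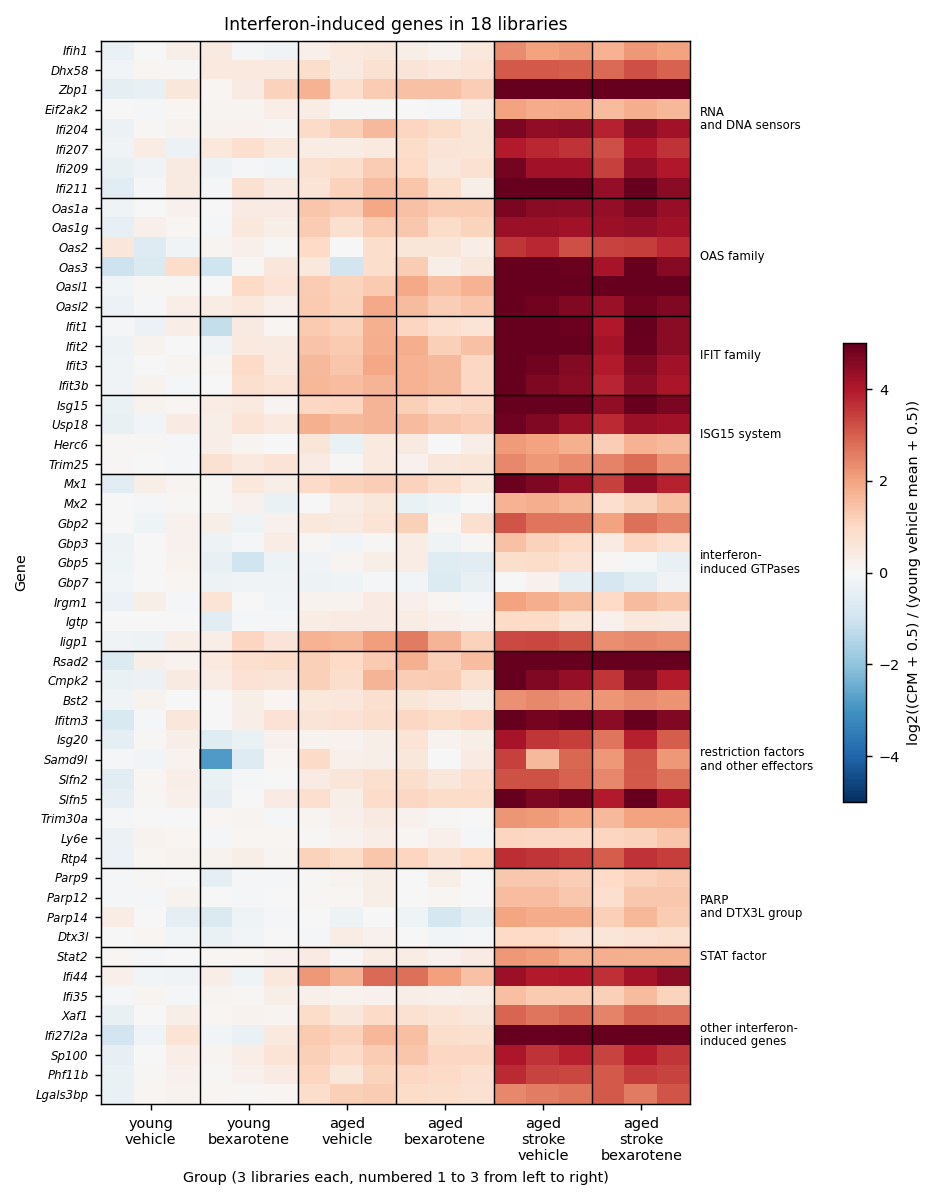
Heat map of the 54 interferon-induced genes (rows, by role) in 18 libraries (columns, 3 per group), coloured by the log2 ratio of each library's CPM to the young vehicle mean, with 0.5 CPM added to both. Aged libraries are pale red for most members and stroke libraries dark red, while the rows of Gbp7, Gbp5 and Igtp stay pale, with Gbp7 between 80.7 and 169 CPM in all libraries.

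Promoter sequences of RefSeq (build GRCm38.p6, 250 bases before to 50 after each start site) were in the table used here for 41 of the 54 members. Not in it were Zbp1, Ifi204, Iigp1, Rtp4, Parp9, Ly6e, Usp18, Dhx58, Ifi27l2a, Oas2, Mx2, Mx1 and Parp14. The letters GAAANNGAAA, the core of the ISRE, were found on either strand in 24 of the 41 members (58.5%), against 3.99% of the 27025 genes with such a window. The GAS letters TTCNNNGAA, which read the same on both strands, were in 10 of the 41 (24.4%), against 9.55% of genes. The following sites, each with up to 10 bases on both sides, show how the match lies in members of different roles. Sequences are written 5′ to 3′ in the direction of the gene, ISRE matches are in capitals, and a match on the opposite strand begins with TTTC.
Isg15 (chr4:156200865-156200906, minus strand): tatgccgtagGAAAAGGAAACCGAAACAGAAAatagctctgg
Oas1a (chr5:120907526-120907555, minus strand): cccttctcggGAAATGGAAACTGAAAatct
Oas1g (chr5:120887614-120887641, minus strand): cccttctcggGAAATGGAAACTGAAAat
Ifit3 (chr19:34583363-34583392, plus strand): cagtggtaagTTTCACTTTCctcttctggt
Rsad2 (chr12:26456553-26456582, minus strand): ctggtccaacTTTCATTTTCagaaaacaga
Bst2 (chr8:71537577-71537612, minus strand): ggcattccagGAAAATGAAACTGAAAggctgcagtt
Stat2 (chr10:128270266-128270295, plus strand): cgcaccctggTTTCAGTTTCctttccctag
Gbp2 (chr3:142620594-142620623, plus strand): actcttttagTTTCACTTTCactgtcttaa
Gbp7 (chr3:142530273-142530302, plus strand): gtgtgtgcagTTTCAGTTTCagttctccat
Isg15 held 3 overlapping matches, and Oas1a, Oas1g and Bst2 held 2 each. Ifit3 held 2 as well, of which the other, beginning at -122 from the start site, lies outside the stretch shown. Of the 36 matches in all, 20 began within 100 bases before the start site, 11 farther before it and 5 at or after it. Gbp7 carried a match as Gbp2 did, and its measured values were among the flattest of the members, as given below.

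**Figure D2:**
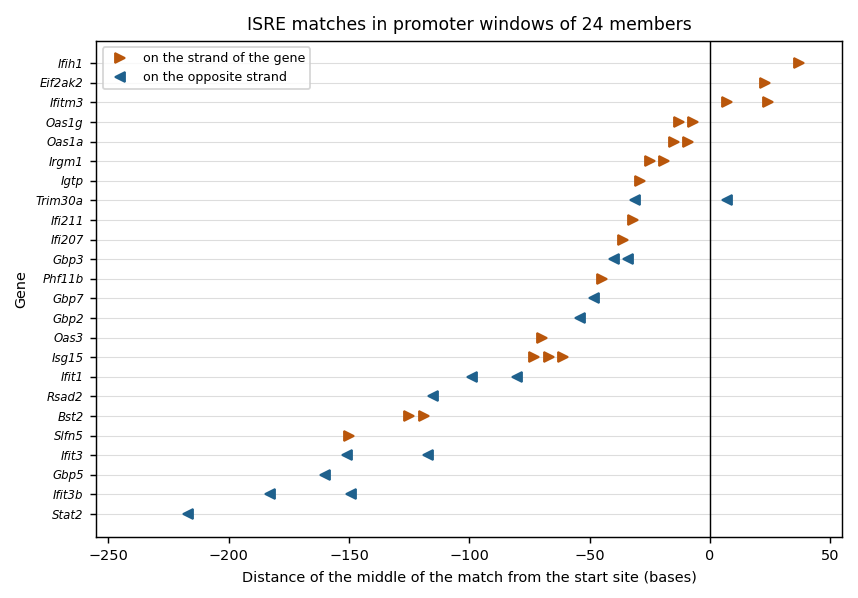
Position of the 36 ISRE matches in the promoter windows of 24 members, as the distance of the middle of each match from the start site in bases (horizontal axis), with 1 row per gene and the arrow giving the strand. Of these matches, 20 lie within 100 bases before the start site.

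The 250 bases before the start site are given for 4 members. Oas1a, Lgals3bp and Oasl2 were the called members of the promoter table with the lowest p with age, and Isg20, shown with the first of its 3 windows, was not called with age (0.24 ± 0.36 on the log2 scale). Of these, Oas1a alone held the ISRE letters, so a match was not a feature of all members that rose with age.
Oas1a (chr5:120907526-120907775, minus strand): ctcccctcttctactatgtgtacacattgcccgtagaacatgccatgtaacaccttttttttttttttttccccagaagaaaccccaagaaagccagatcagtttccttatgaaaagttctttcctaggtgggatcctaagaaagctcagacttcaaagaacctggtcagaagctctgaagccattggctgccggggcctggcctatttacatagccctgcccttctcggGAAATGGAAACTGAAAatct
Lgals3bp (chr11:118401960-118402209, minus strand): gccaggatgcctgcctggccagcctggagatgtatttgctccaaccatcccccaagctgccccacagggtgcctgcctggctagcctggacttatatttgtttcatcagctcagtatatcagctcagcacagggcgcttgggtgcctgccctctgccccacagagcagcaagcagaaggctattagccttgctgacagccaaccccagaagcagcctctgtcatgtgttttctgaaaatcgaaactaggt
Oasl2 (chr5:114896684-114896933, plus strand): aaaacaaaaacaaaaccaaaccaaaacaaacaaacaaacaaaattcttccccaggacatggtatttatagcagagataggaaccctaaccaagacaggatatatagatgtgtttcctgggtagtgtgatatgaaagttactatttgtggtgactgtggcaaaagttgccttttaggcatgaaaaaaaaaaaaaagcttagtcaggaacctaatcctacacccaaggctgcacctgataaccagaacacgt
Isg20 (chr7:78913174-78913423, plus strand): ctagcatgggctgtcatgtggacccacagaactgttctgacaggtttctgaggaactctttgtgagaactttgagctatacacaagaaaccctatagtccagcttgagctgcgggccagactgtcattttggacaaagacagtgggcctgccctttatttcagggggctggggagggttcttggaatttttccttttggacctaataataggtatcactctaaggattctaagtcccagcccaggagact
The median log2 fold change with age was 0.61 in the 24 members with a match and 0.86 in the 17 without, and with stroke in vehicle-treated mice it was 2.81 and 2.31. Both are descriptions of overlapping ranges, with 7 of 24 and 6 of 17 members called higher with age. A match is a run of letters, and whether a factor binds there was not measured.

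The first comparison asked how cells of aged mice differ from those of young mice under vehicle. Of the 54 members, 19 rose with age and none fell, while 1.26% of all genes tested were called higher and 0.438% lower. The call is an adjusted p under 0.05 in edgeR's quasi-likelihood test with Benjamini-Hochberg adjustment over all 15528 genes. A value with ± is a log2 fold change with its standard error from this test, from 3 libraries per group. The median log2 fold change of the members was 0.74, against -0.01 over all genes, and 51 of 54 members had a value above 0, as did 47.6% of all genes. An unadjusted p under 0.05 was found for 38 members, all of them above 0, and for 2034 of all 15528 genes. The direction was shared more widely than the call. All 3 aged libraries lay above all 3 young libraries for 36 members, against 9.69% of all genes. In bulk RNA, more cells of an interferon-responding type and more RNA per cell cannot be told apart.

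Among the OAS family, enzymes that make a messenger of double-stranded RNA recognition, 3 of 6 rose. Oas1a read 7.25, 8.5 and 10 CPM in young vehicle and 23.3, 21 and 34.4 CPM in aged vehicle libraries, a log2 fold change of 1.61 ± 0.18 (SE, n = 3 per group; edgeR adjusted p = 5.13e-05). Every aged library was above every young one. Oas1g (1.23 ± 0.20) and Oasl2, an OAS-like protein (1.51 ± 0.20), rose as well. Oas1a and Oas1g are near-identical copies with the same ISRE stretch, so reads may be divided between them and their single values are uncertain. Oas2 (0.70 ± 0.28), Oasl1 (1.50 ± 0.42) and Oas3 (0.35 ± 0.75) did not pass the test.

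The IFIT family, proteins that bind foreign RNA ends, had the highest median of the groups with more than 1 member, 1.63 on the log2 scale. Ifit3 was 18.2, 21 and 22.6 CPM in young and 64.4, 54.3 and 81.2 CPM in aged vehicle libraries, with no overlap. Its log2 fold change was 1.69 ± 0.25 (edgeR adjusted p = 0.00119), and its near copy Ifit3b (1.70 ± 0.23) and Ifit2 (1.56 ± 0.24) rose too. Ifit1, at 1.48 ± 0.37, had an edgeR adjusted p of 0.0614 and was not called.

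In the system of ISG15, a ubiquitin-like protein that is joined to other proteins, the modifier and its protease rose. Usp18, which removes ISG15 and dampens the interferon receptor, was 6.39, 7.69 and 11.5 CPM in young and 30.8, 27.2 and 28.9 CPM in aged vehicle libraries. The groups did not overlap, and the log2 fold change was 1.75 ± 0.20 (edgeR adjusted p = 6.14e-05). Isg15 itself was 2.1, 3.24 and 2.97 against 6.25, 6.36 and 9.98 CPM, a log2 fold change of 1.46 ± 0.34 (edgeR adjusted p = 0.034). This call was lost in 5 of the 6 fits that left out 1 library of the comparison. The ligases Herc6 (0.32 ± 0.20) and Trim25 (0.34 ± 0.15) were not called.

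Of 8 sensors of RNA and DNA, 2 rose: Ifi204, a DNA sensor (1.29 ± 0.19), and Dhx58, the RNA sensor LGP2 (0.74 ± 0.13). Zbp1, a sensor of Z-form nucleic acids, was 2.0, 2.16 and 4.62 CPM in young and 11, 5.58 and 7.77 CPM in aged vehicle libraries. Its groups did not overlap, but the edgeR adjusted p of 0.0694 missed the threshold. Ifih1, the RNA sensor MDA5 (0.45 ± 0.18), and Eif2ak2, the kinase PKR (0.17 ± 0.14), were not called. Ifi204, Ifi207, Ifi209 and Ifi211 are members of 1 gene family of similar sequence, which makes their single values uncertain.

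Of 9 interferon-induced GTPases, which attack virus particles or the membranes around microbes, 2 rose. Iigp1 was 3.34, 3.1 and 4.97 CPM in young and 13.7, 13.1 and 17.7 CPM in aged vehicle libraries, which did not overlap. Its log2 fold change was 1.94 ± 0.31 (edgeR adjusted p = 0.00165). Mx1, at 1.26 ± 0.30, was called with an edgeR adjusted p of 0.0378, but in none of the 6 fits without 1 library. The guanylate-binding proteins gave another picture, with -0.01 ± 0.19 for Gbp3, 0.10 ± 0.24 for Gbp5 and -0.19 ± 0.17 for Gbp7. The sign of the Gbp3 value turned under another scaling. Gbp2 was 0.58 ± 0.25 and was not called either.

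Of 11 restriction factors and other effectors, 2 rose. These were Bst2, at 38.3, 49.4 and 43.9 CPM in young and 63.3, 65.8 and 75.9 CPM in aged vehicle libraries (0.64 ± 0.11), and Rtp4, a chaperone of membrane receptors (1.19 ± 0.16). Values that did not pass were 1.30 ± 0.45 for Rsad2, the antiviral enzyme viperin, 0.75 ± 0.26 for Ifitm3 and 0.20 ± 0.12 for Ly6e. The 3 Ifitm3 values in aged libraries, 49.4, 51.5 and 57.8 CPM, were all above those in young libraries, 18.2, 29.4 and 46.5 CPM. None of Parp9, Parp12, Parp14 and Dtx3l, a group of enzymes that modify proteins with ADP-ribose or ubiquitin, was called, and their values lay between -0.09 and 0.19. Stat2, the transcription factor, was 45, 39.1 and 42.6 against 55.6, 44.4 and 54.6 CPM and overlapped (0.29 ± 0.11).

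Among the 7 other members, 5 rose, and all 7 were higher in every aged than in every young library. Ifi44 had the highest fold change with age of all members, from 0.859, 0.539 and 0.524 CPM in young to 4.62, 3.23 and 7.68 CPM in aged vehicle libraries. The log2 fold change was 2.98 ± 0.45 (edgeR adjusted p = 0.000817), a call that limma voom did not make. Lgals3bp went from 135, 185 and 194 to 320.0, 396 and 416 CPM (1.14 ± 0.14, edgeR adjusted p = 0.000151). The nuclear body protein Sp100 (1.17 ± 0.20), Phf11b (0.96 ± 0.17) and Xaf1 (0.86 ± 0.16) rose as well. Ifi27l2a, at 1.42 ± 0.34, had an edgeR adjusted p of 0.0511.

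**Figure D3:**
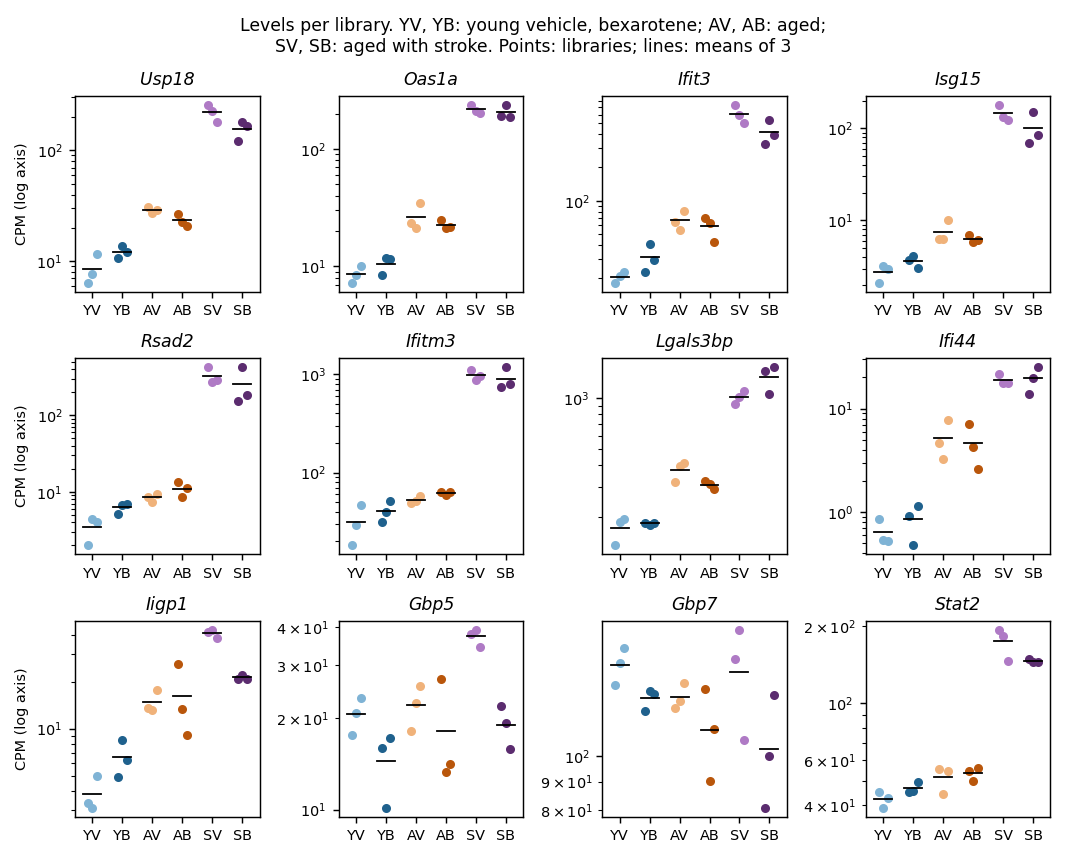
CPM (log axis) of 12 members in each library, in the order young vehicle (YV), young bexarotene (YB), aged vehicle (AV), aged bexarotene (AB), aged stroke vehicle (SV) and aged stroke bexarotene (SB), with lines at the means of 3. Usp18, Oas1a and Ifit3 step up with age and again with stroke, whereas Gbp7 stays between 80.7 and 169 CPM in all libraries.

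No marker of monocytes (10 tested) or neutrophils (10 tested) was called with age. Summed monocyte markers were 69.3 to 111 CPM in aged and 89.5 to 222 CPM in young vehicle libraries, and neutrophil markers 653 to 892 against 805 to 1703 CPM. Of 10 markers of border-associated macrophages, the macrophages of the brain's surfaces, 3 fell. Summed microglial markers, none of them called, were 40938 to 44759 CPM in aged and 45511 to 55794 CPM in young vehicle libraries, without overlap. Sums were also lower without overlap for T cells (4.44 to 6.07 against 7.82 to 12.7 CPM) and plasmacytoid dendritic cells (169 to 171 against 174 to 191 CPM). Of 8 markers tested each, 1 of plasmacytoid dendritic cells and 1 of endothelial cells rose. The part of these cell types in the members' values was not tested. Without the 6 libraries numbered 1, 12 members were called, and Bst2, Dhx58, Isg15, Mx1, Oas1g, Phf11b and Xaf1 were lost. Of all genes 107 of 15410 were then called, against 264 of 15528 with all libraries.

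The same question can be put to bexarotene-treated mice, whose 6 libraries are none of those above, a comparison added after the data were seen. Over all 15528 genes, 0.676% were called higher and 44 genes lower between aged and young bexarotene libraries. Among the members the median was 0.65, and 11 rose and none fell. Of these, 10 were also among the 19 called under vehicle, and the other was Slfn2, a Schlafen family member (0.89 ± 0.20). Ifi44 (2.41 ± 0.43), Iigp1 (1.30 ± 0.29), Ifit2 (1.24 ± 0.24), Oas1a (1.09 ± 0.18), Oasl2 (1.04 ± 0.20) and Ifit3b (1.00 ± 0.23) were among the 10. So were Oas1g (0.94 ± 0.20), Usp18 (0.94 ± 0.20), Rtp4 (0.75 ± 0.16) and Lgals3bp (0.76 ± 0.14).

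Other members gave values that did not pass in the treated mice. Ifit3 was 0.94 ± 0.24, Zbp1 0.82 ± 0.35, Rsad2 0.80 ± 0.41 and Isg15 0.81 ± 0.33. Ifitm3 was 0.61 ± 0.26, Ifi27l2a 1.06 ± 0.35 and Gbp2 0.66 ± 0.25. Bst2 (0.34 ± 0.11), Stat2 (0.19 ± 0.11) and Ly6e (0.05 ± 0.12) were closer to 0. Among the values below 0, none of them called, the lowest p-values were those of Trim25 (-0.18 ± 0.15), Gbp7 (-0.19 ± 0.17) and Eif2ak2 (-0.12 ± 0.14). The count of 11 rested on few libraries, since 2 to 10 members were called when 1 library was left out and 0 without the libraries numbered 1. Calls over all genes fell too, from 149 of 15528 to between 82 and 117 when 1 library was left out. Without the libraries numbered 1 they were 53 of 15410. Of the 6 fits without 1 library, Slfn2 lost its call in 6, Rtp4 in 5, Ifit3b, Iigp1, Oas1g and Usp18 in 4, Oasl2 in 3, Ifit2 in 2, Lgals3bp in 1 and Ifi44 and Oas1a in 0. Of 10 markers of border-associated macrophages 3 were called lower, with sums of 924 to 1056 CPM in aged and 1362 to 1901 CPM in young bexarotene libraries. Sums for T cells were also lower without overlap (3.85 to 6.90 against 8.11 to 12.1 CPM). The part of these types was not tested. Same-numbered libraries of these groups deviated together, and with the replicate number as a block 10 members were called, Iigp1 no longer among them.

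Set against young vehicle, with which the age comparison shares its controls, aged bexarotene libraries had 21 members higher and none lower. Of all 15528 genes tested, 1.75% were called higher and 211 genes lower. The median was 0.78. Usp18 was 26.5, 22.8 and 20.8 CPM in aged bexarotene libraries, all above the young vehicle values, with a log2 fold change of 1.44 ± 0.20. Oas1a was 1.38 ± 0.18, Oasl2 1.43 ± 0.20 and Ifit3 1.52 ± 0.25. Ifi44, at 2.83 ± 0.45, again had the highest value, set against the same low young vehicle levels. Thus treated aged mice still differed from untreated young mice in these genes. Iigp1 (2.05 ± 0.31), Ifit2 (1.54 ± 0.24), Ifit3b (1.55 ± 0.23), Oasl1 (2.04 ± 0.40), Lgals3bp (0.85 ± 0.14) and Rtp4 (0.96 ± 0.16) rose too.

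Further called members of this comparison were Sp100 (1.18 ± 0.20), Phf11b (0.95 ± 0.17), Dhx58 (0.65 ± 0.13), Ifi204 (0.89 ± 0.19), Ifi207 (0.75 ± 0.19), Slfn2 (0.77 ± 0.20), Oas1g (1.25 ± 0.20), Xaf1 (0.69 ± 0.16) and Bst2 (0.48 ± 0.11). Zbp1 (1.50 ± 0.38) was called as well, but not with the replicate number as a block in these groups, whose same-numbered libraries deviated together. Isg15 (1.20 ± 0.34), Ifitm3 (0.99 ± 0.26), Rsad2 (1.67 ± 0.44), Ifi27l2a (1.11 ± 0.35), Gbp2 (0.77 ± 0.25), Stat2 (0.34 ± 0.11) and Ly6e (0.09 ± 0.12) did not pass. Parp14 (-0.51 ± 0.20), Gbp7 (-0.39 ± 0.17) and Mx2 (-0.19 ± 0.23) had values below 0 and were not called. Without young vehicle library 1 the count was 13, and without all libraries numbered 1 it was 10. Of all genes, 209 of 15964 and 173 of 15410 were called in these fits, against 482 of 15528 with all libraries. The calls of Zbp1, Xaf1, Slfn2 and Ifi207 were lost in 5 of the 6 fits without 1 library, that of Bst2 in 4, that of Ifi204 in 3 and those of Dhx58 and Oasl1 in 1. Of 10 markers of border-associated macrophages 3 were called lower and 1 higher in this comparison. Also lower were 1 of 10 microglial and 1 of 8 plasmacytoid dendritic cell markers. Summed markers were lower without overlap for microglia (38446 to 44922 against 45511 to 55794 CPM) and border-associated macrophages. So were those of T cells (3.85 to 6.90 against 7.82 to 12.7 CPM) and endothelial cells (38.0 to 47.7 against 48.1 to 54.5 CPM). Astrocyte sums were higher (496 to 730 against 305 to 428 CPM), with a median log2 fold change of the other sign. The part of these types was not tested.

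The next comparison asked how stroke changes these genes in aged mice. In vehicle-treated aged mice 53 of 54 members rose after stroke, against 27.2% of all genes called higher, and the median log2 fold change was 2.45. All 3 stroke libraries were above all 3 libraries without stroke for these 53 members, as for 31% of all genes. The range ran from 0.15 ± 0.17 for Gbp7, the member not called (edgeR adjusted p = 0.49), to 5.27 ± 0.39 for Rsad2 (edgeR adjusted p = 7.09e-08). In the same libraries 10 of 10 monocyte markers rose, from a summed 69.3 to 111 CPM to 2899 to 4675 CPM, 5 of 10 neutrophil markers rose, and 8 of 10 microglial markers fell. Of 10 markers of border-associated macrophages 3 rose and 1 fell, with sums of 796 to 948 CPM without and 1298 to 1386 CPM with stroke. Of 7 NK cell markers tested 4 rose, and of 8 of plasmacytoid dendritic cells 3 rose and 1 fell. The part of entering cells and of these other types in the members' values was not tested.

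Rsad2 was 8.6, 7.44 and 9.4 CPM without and 424, 274 and 288 CPM with stroke, all stroke libraries far above the others. Among the sensors all 8 rose. Zbp1 went from 11, 5.58 and 7.77 to 230.5, 203 and 187 CPM (4.66 ± 0.32), with Ifi207 at 3.39 ± 0.20, Ifi204 at 3.28 ± 0.19 and Dhx58 at 2.37 ± 0.12. All 6 OAS genes rose, Oas3 by 5.26 ± 0.59 and Oas1a by 3.04 ± 0.17. Oas1a was 239, 209 and 202 CPM in the stroke libraries. Oasl2 (3.34 ± 0.20) and Oas1g (3.23 ± 0.17) lay close to it.

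All 4 IFIT genes rose, with 3.80 ± 0.24 for Ifit2, 3.20 ± 0.25 for Ifit3 and 3.14 ± 0.22 for Ifit3b. In the ISG15 system, Isg15 went from 6.25, 6.36 and 9.98 to 181, 133 and 123 CPM (4.28 ± 0.28), Usp18 to 259, 225 and 181 CPM (2.93 ± 0.19), and Trim25 was 2.00 ± 0.15. These stroke libraries were all above those without stroke. Of the effectors, Ifitm3 rose from 49.4, 51.5 and 57.8 to 1098, 879 and 962 CPM (4.21 ± 0.28). Rtp4 (2.41 ± 0.16), Trim30a (1.82 ± 0.12), Bst2 (1.71 ± 0.11) and Ly6e (0.85 ± 0.12) rose by less. Ifi27l2a was 3.92 ± 0.32, Phf11b 2.58 ± 0.17, Sp100 2.71 ± 0.20 and Xaf1 2.00 ± 0.15.

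The lowest role medians were those of the PARP group, at 1.23, and of the GTPases, at 1.48. Of 9 GTPases, 8 rose, with Mx1 at 3.61 ± 0.25, Gbp2 at 2.31 ± 0.24 and Irgm1, a regulator of the family, at 1.56 ± 0.20. Igtp was 117, 120.2 and 121 CPM without and 181, 182 and 137 CPM with stroke, a log2 fold change of 0.48. The Gbp5 call (0.75 ± 0.23) was lost without aged vehicle library 1. Gbp7 was 122, 126 and 135 CPM without and 149, 169 and 107 CPM with stroke, and these values overlapped. The log2 fold changes of Parp14 (1.99 ± 0.20), Parp12 (1.33 ± 0.12), Parp9 (1.14 ± 0.11) and Dtx3l (0.73 ± 0.11), and Stat2 (1.76 ± 0.11), were below the members' median.

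The age and stroke comparisons share the aged vehicle libraries. For most members the log2 fold change with stroke was above that with age. Ifi44 (2.98 with age, 1.87 with stroke) and Iigp1 (1.94 and 1.48) had the order reversed, the age value of Ifi44 being uncertain in size as given above. The difference between these values was not tested.

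**Figure D4:**
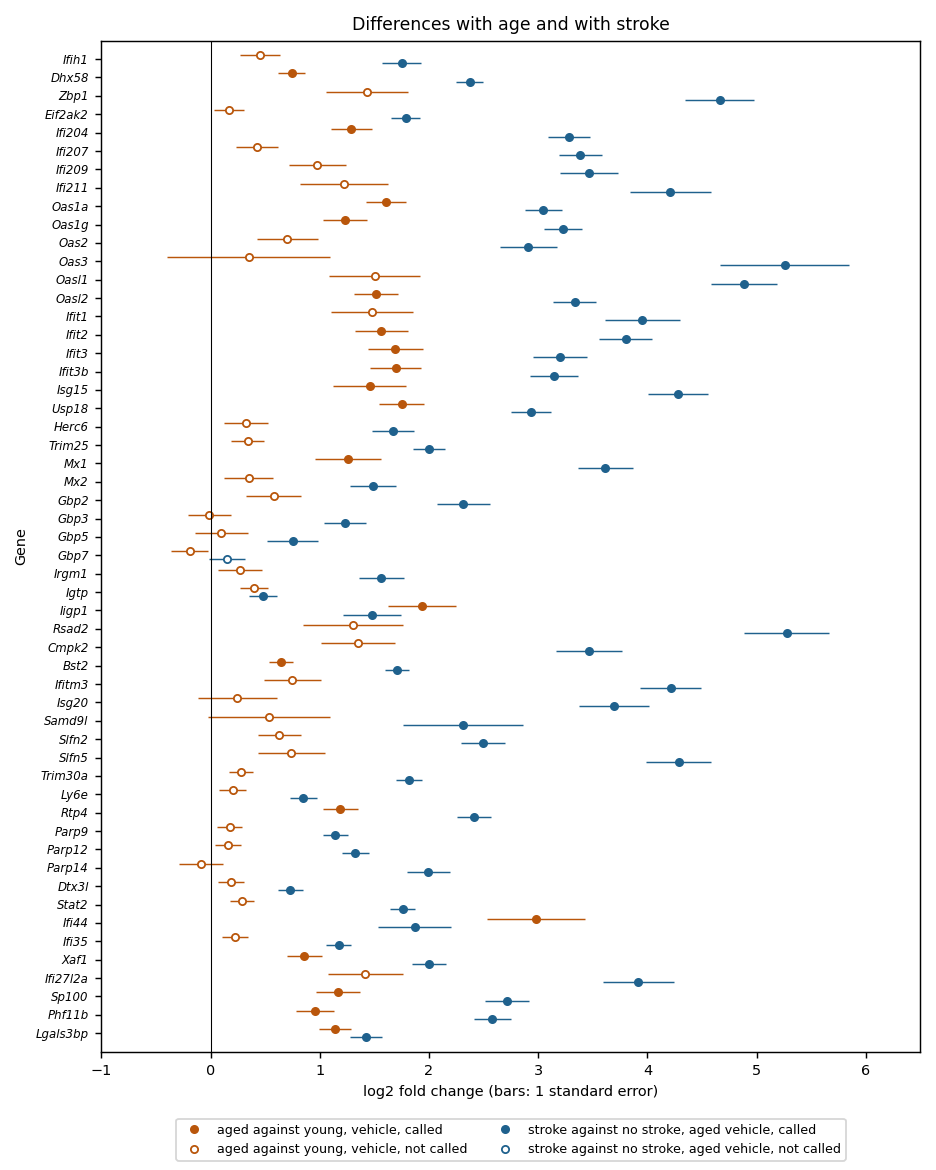
Log2 fold changes (points) with 1 standard error (bars) of the 54 members, for aged against young vehicle (orange) and for stroke in aged vehicle mice (blue), filled where called. Every stroke value except that of Gbp7 is filled, and the age values reach from -0.19 for Gbp7 to 2.98 for Ifi44.

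In bexarotene-treated aged mice, none of whose libraries entered the vehicle comparison, 50 members rose after stroke and none fell. Of all genes 26.8% were called higher and 21.2% lower, and the members' median was 2.41. All 50 were among the 53 called under vehicle. Stroke libraries lay above the others without overlap for 50 members and for 31.2% of all genes. The 4 not called were all GTPases: Iigp1 (0.41 ± 0.27), Igtp (0.14 ± 0.13), Gbp5 (0.07 ± 0.24) and Gbp7 (-0.11 ± 0.17). Iigp1 was 25.8, 13.3 and 9.13 CPM without and 20.8, 22.2 and 20.9 CPM with stroke, and the first of these libraries exceeded all 3 with stroke. Whether the stroke difference itself changed with treatment is given below.

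Values under bexarotene were 4.29 ± 0.31 for Zbp1, 4.55 ± 0.38 for Rsad2, 4.01 ± 0.28 for Isg15 and 3.85 ± 0.28 for Ifitm3. Ifi27l2a, at 4.66 ± 0.34, had the highest value. Oas1a (3.19 ± 0.17), Oasl2 (3.21 ± 0.20), Oas1g (3.23 ± 0.17), Ifit2 (3.07 ± 0.24), Ifit3 (2.82 ± 0.24), Ifit3b (2.68 ± 0.22) and Usp18 (2.73 ± 0.19) rose. So did Ifi204 (3.37 ± 0.19), Ifi207 (2.94 ± 0.19), Dhx58 (2.41 ± 0.12), Mx1 (3.14 ± 0.25), Gbp2 (1.70 ± 0.24) and Mx2 (1.44 ± 0.22). Rtp4 (2.45 ± 0.16), Phf11b (2.41 ± 0.17), Lgals3bp (2.12 ± 0.15), Xaf1 (2.11 ± 0.16), Trim25 (2.08 ± 0.15), Bst2 (1.80 ± 0.11), Trim30a (1.81 ± 0.12), Parp14 (1.91 ± 0.20) and Stat2 (1.46 ± 0.11) rose too. Parp12 (1.18 ± 0.12), Parp9 (1.05 ± 0.11) and Ly6e (1.12 ± 0.12) rose by less. In these libraries 10 of 10 monocyte markers were called higher with stroke, from a summed 139 to 243 CPM to 2556 to 4976 CPM, and 8 of 10 microglial markers were called lower. Of 10 markers of border-associated macrophages 5 were called lower and 2 higher, and of 10 neutrophil markers 1 each way. Of 7 NK cell markers tested 1 was called higher, and of 8 of plasmacytoid dendritic cells 3 were called higher and 1 lower. Their part in the members' values was not tested.

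The remaining comparisons asked what bexarotene does in each setting. They reuse the vehicle libraries of the age and stroke comparisons, so their values are given beside those and not tested against them. In young mice edgeR called no member higher or lower, against 0.419% and 0.0902% of all genes. The median was 0.17, with 0.09 without young vehicle library 1 and 0.26 without young vehicle library 3. Of the values, 40 of 54 were above 0 (50.1% of all genes), and 7 members had an unadjusted p under 0.05 (8.37% of all genes). Trim25 had the lowest p, at 25.6, 24.7 and 23.1 CPM with vehicle and 41.8, 34.4 and 39.2 CPM with bexarotene, without overlap (0.65 ± 0.15, edgeR adjusted p = 0.059). Treated libraries were higher without overlap for 7 members and 1101 of 15528 genes, and lower without overlap for 3 members and 933 genes. DESeq2 called Trim25 alone, and limma voom no member.

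The next lowest p-values in young mice were those of Dhx58 (0.51 ± 0.13), Ifi207 (0.66 ± 0.19), Usp18 (0.50 ± 0.21) and Iigp1 (0.76 ± 0.33). Oas1a (0.29 ± 0.19), Oasl2 (0.39 ± 0.21), Ifit3 (0.58 ± 0.25), Isg15 (0.39 ± 0.37), Zbp1 (0.68 ± 0.41), Rsad2 (0.87 ± 0.47) and Ifitm3 (0.39 ± 0.26) had positive values with wide errors. Bst2 (0.13 ± 0.11), Stat2 (0.14 ± 0.11), Gbp2 (0.11 ± 0.26), Ifi27l2a (0.05 ± 0.37) and Ly6e (0.04 ± 0.12) were near 0, and the last pair changed sign without the libraries numbered 1. Of the 14 values below 0, those with the lowest p were Gbp5 (-0.50 ± 0.24), Parp9 (-0.21 ± 0.11) and Igtp (-0.22 ± 0.13). The lowest value was that of Samd9l (-0.73 ± 0.59), which edgeR called lower when no filter on low counts was used (-0.75, adjusted p = 0.000666). That fit called 4 members higher, Trim25 (0.63), Rsad2 (0.84), Ifi207 (0.63) and Ifit3 (0.55), with 457 of 31653 genes called. Summed astrocyte markers were 586 to 910 CPM with bexarotene and 305 to 428 CPM with vehicle, without overlap, and B cell markers 299 to 451 against 457 to 514 CPM. The median log2 fold change of the 8 astrocyte markers had the other sign, at -0.39. No marker of either type was called, and their part in the members' values was not tested.

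In aged mice without stroke edgeR again called no member, against 0.238% of all genes called higher and 0.0193% lower, and neither DESeq2 nor limma voom called one. The median was -0.14, and between -0.21 and -0.01 when 1 library was left out, the latter without aged vehicle library 3. Without aged bexarotene library 2 or 3 it was -0.09 and -0.07. Of the values, 37 of 54 were below 0 (50.8% of all genes), and 3 members had an unadjusted p under 0.05 (6.52% of all genes). Usp18 was 30.8, 27.2 and 28.9 CPM with vehicle and 26.5, 22.8 and 20.8 CPM with bexarotene, every treated library below every untreated one, but its log2 fold change of -0.31 ± 0.19 had an edgeR adjusted p of 0.863. Treated libraries were lower without overlap for 3 members and 826 of 15528 genes, and higher without overlap for 3 members and 1005 genes. The lowest p-values were those of Mx2 (-0.54 ± 0.22), Dtx3l (-0.27 ± 0.12), Ifi204 (-0.40 ± 0.18), Parp14 (-0.42 ± 0.20) and Lgals3bp (-0.29 ± 0.14).

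Other values in aged mice were -0.23 ± 0.17 for Oas1a, -0.08 ± 0.19 for Oasl2, -0.18 ± 0.24 for Ifit3, -0.26 ± 0.30 for Isg15 and -0.31 ± 0.32 for Ifi27l2a. Bst2 (-0.17 ± 0.11), Ly6e (-0.11 ± 0.12), Stat2 (0.05 ± 0.11) and Zbp1 (0.07 ± 0.33) were within 0.2 of 0. Above 0 were Rsad2 (0.36 ± 0.39), Ifitm3 (0.25 ± 0.26), Gbp2 (0.19 ± 0.25), Ifi207 (0.32 ± 0.19) and Oasl1 (0.54 ± 0.33). The sign of Oas1a, Oasl2, Ifit3, Stat2, Zbp1 and Gbp2 depended on single libraries. Summed monocyte markers were 139 to 243 CPM with bexarotene and 69.3 to 111 CPM with vehicle, and neutrophil markers 990.2 to 1927 against 653 to 892 CPM. Astrocyte markers summed to 496 to 730 against 339 to 486 CPM, with a median log2 fold change of the other sign (-0.10), and those of endothelial cells (38 to 47.7 against 52.3 to 53.5 CPM) and oligodendrocytes (204 to 220 against 230 to 265 CPM) were lower. None of these lists held a called marker. Their part in the members' values was not tested.

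After stroke edgeR called no member with bexarotene, against 0.0515% of all genes called higher and 0.00644% lower. Yet 48 of 54 values were below 0 (49% of all genes), the median was -0.31, and 20 members had an unadjusted p under 0.05 (6.36% of all genes). Treated libraries lay below untreated ones without overlap for 11 members, against 5.48% of all genes. By role, all 9 GTPases (median -0.48), 4 IFIT genes (-0.68), 8 sensors (-0.28), 4 PARP group genes (-0.24) and Stat2 were below 0. So were 10 of 11 restriction factors and other effectors (-0.26) and 3 of 4 ISG15 system genes (-0.48). Of 6 OAS genes 5 were below 0 (-0.14), and of the 7 other members 4 (-0.06).

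Gbp5 had the lowest p, at 38, 39.2 and 34.4 CPM with vehicle and 22, 19.3 and 15.8 CPM with bexarotene. These libraries did not overlap, and the log2 fold change was -0.96 ± 0.23 (edgeR adjusted p = 0.206). Iigp1 was 42.1, 43.3 and 38.5 CPM with vehicle and 20.8, 22.2 and 20.9 CPM with bexarotene. Every vehicle library was far above every treated one (-0.95 ± 0.26, edgeR adjusted p = 0.308). Igtp was 181, 182 and 137 against 105, 132 and 123 CPM (-0.47 ± 0.13, edgeR adjusted p = 0.307). Its treated libraries all lay below the untreated ones. Ifit2 was 894, 708 and 593 against 329, 555 and 417 CPM (-0.76 ± 0.22), also without overlap, and Mx1 111, 95 and 74.6 against 39.5, 77.3 and 53.1 CPM (-0.73 ± 0.22), with overlap.

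DESeq2 called Gbp5 lower, limma voom Gbp5 and Iigp1, and edgeR fitted to the 2 groups alone Iigp1. Without a filter on low counts edgeR called 17 members lower, among 419 of 31653 genes. Usp18 (-0.52 ± 0.17), Ifit3 (-0.56 ± 0.23), Isg15 (-0.52 ± 0.23), Gbp2 (-0.42 ± 0.22), Rsad2 (-0.36 ± 0.31), Zbp1 (-0.31 ± 0.26) and Stat2 (-0.25 ± 0.11) were below 0 and not called. Oasl2 (-0.20 ± 0.18), Ifitm3 (-0.11 ± 0.24), Oas1a (-0.08 ± 0.15) and Bst2 (-0.08 ± 0.11) were nearer to 0. Opposite in sign were Lgals3bp (0.40 ± 0.14), Ifi27l2a (0.44 ± 0.28), Trim25 (0.22 ± 0.14) and Ly6e (0.16 ± 0.12), of which Ifi27l2a and Ly6e did not overlap. Of all 15528 genes tested, 902 were higher without overlap in this comparison. Lgals3bp was 918, 1016 and 1105 CPM with vehicle and 1441, 1050.1 and 1522 CPM with bexarotene.

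Single libraries moved with these values. The median was -0.50 without aged stroke bexarotene library 2, was -0.14 without library 1 of that group, and was -0.04 without all libraries numbered 1. Summed monocyte markers were 3766, 2899 and 4675 CPM in the vehicle and 2556, 4976 and 3206 CPM in the bexarotene libraries. In the bexarotene group these sums had the order of the members' medians, library 1 being lowest and library 2 highest, and in the vehicle group they had not. Bexarotene libraries were lower without overlap in summed choroid plexus markers, at 145 to 738 against 954 to 3321 CPM, in markers of border-associated macrophages, at 959 to 1237 against 1298 to 1386 CPM, and in those of endothelial cells, at 35.6 to 42.3 against 46.8 to 77.9 CPM. No marker of monocytes, microglia, choroid plexus, border-associated macrophages or endothelial cells was called between the groups. With the choroid plexus level as a covariate the median was -0.35. Because that level did not overlap between these groups, this fit cannot tell its part and that of bexarotene apart. The part of the other cell types in the result was not tested.

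**Figure D5:**
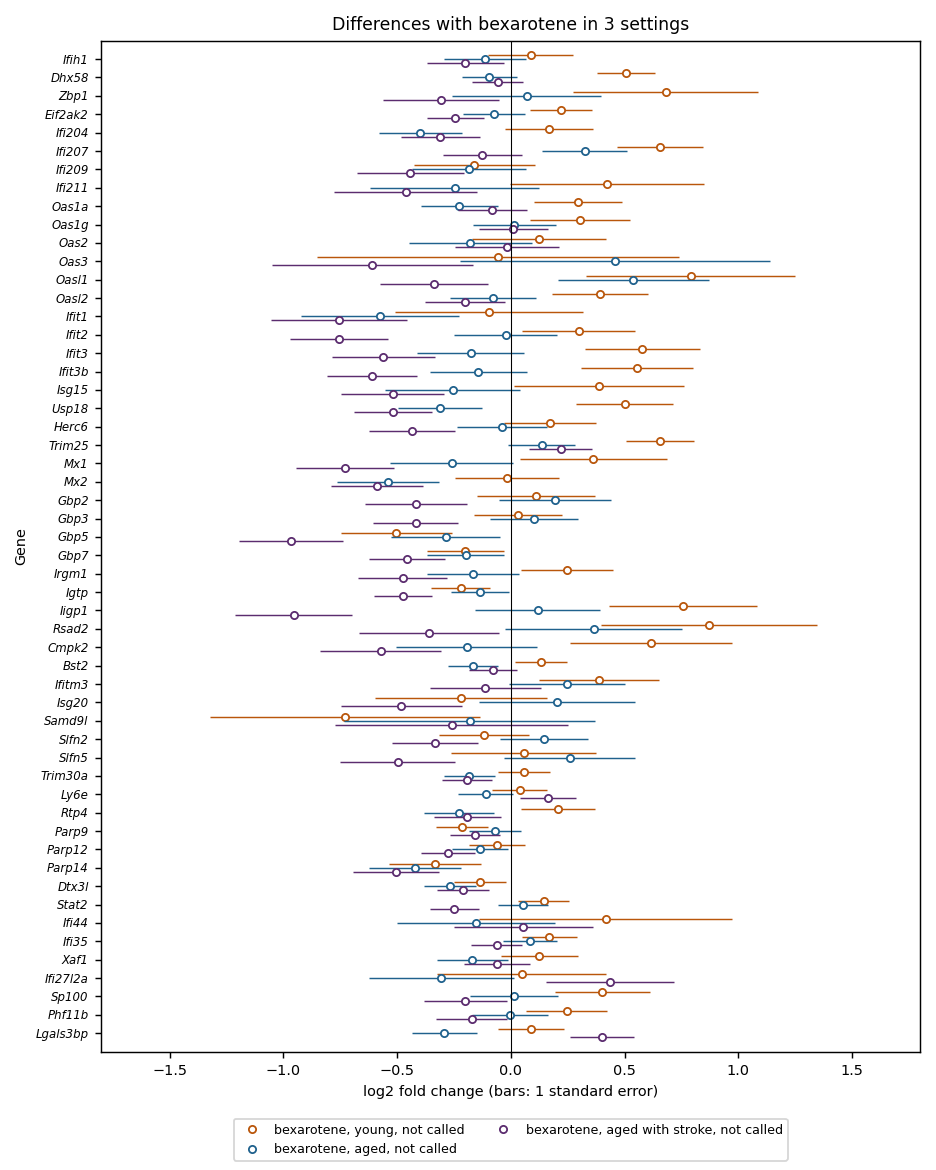
Log2 fold changes (points) with 1 standard error (bars) of the 54 members for bexarotene against vehicle in young (orange), aged (blue) and aged stroke mice (purple), open where not called. All points are open, and the purple points lie below 0 for 48 members.

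The difference of the bexarotene effect between settings was tested directly. Between aged and young mice edgeR called no gene in either direction (0% of all genes), with a median of -0.30 over the members and 43 of 54 values below 0 (50.5% of all genes). An unadjusted p under 0.05 was found for 6 members, as for 2.94% of all genes. The lowest p-values, which also rounded to 1 after adjustment, were those of Dhx58 (-0.60 ± 0.18), Usp18 (-0.81 ± 0.28), Trim25 (-0.52 ± 0.21), Ifit3 (-0.75 ± 0.35) and Ifit3b (-0.70 ± 0.32).

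Between aged mice with and without stroke edgeR also called no gene (0%), with a median of -0.21, 41 of 54 values below 0 (49.7% of all genes) and 4 members with an unadjusted p under 0.05 (4.11% of all genes). The lowest p-values were those of Lgals3bp (0.69 ± 0.20), Iigp1 (-1.07 ± 0.37), Ifit2 (-0.73 ± 0.31), Oasl1 (-0.87 ± 0.41) and Gbp5 (-0.68 ± 0.33), each with an edgeR adjusted p that rounds to 1. The loss of the Iigp1 and Gbp5 calls with stroke under treatment was therefore not shown by this fit to be a difference between treatments. DESeq2 and limma voom called no member for either difference. Without a filter on low counts, however, edgeR called 6 members for the difference with stroke, among 256 of 31653 genes. Iigp1 (-1.06, edgeR adjusted p = 0.0171), Ifit2, Oas3 and Slfn5 had values below 0 in that fit, and Ifi27l2a and Lgals3bp above 0. The median of -0.21 was -0.04 without aged stroke bexarotene library 1, -0.07 without aged stroke vehicle library 1 and -0.36 without aged stroke bexarotene library 2. It was 0.10 without all libraries numbered 1, so its sign rested on those libraries.

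Of the 21 interferon ligand genes, 12 had no count in any library, Ifng among them, and Ifnb1 alone, the gene of interferon beta, passed the filter. Ifnb1 had 0 counts in all 6 young libraries. In aged mice it had 1, 0 and 0 counts with vehicle and 7, 5 and 0 with bexarotene. With stroke it had 45, 33 and 29 counts with vehicle and 30, 12 and 7 with bexarotene. These counts are not scaled for library totals, which were higher with stroke. Under vehicle Ifnb1 rose with stroke (edgeR adjusted p = 0.00109), and under bexarotene it did not pass (edgeR adjusted p = 0.403). A difference between the treatments was not shown. Ifnb1 was not called with bexarotene after stroke (log2 fold change -1.40), nor for the difference of the bexarotene effect with stroke (-4.66). A count of 0 in the shallowest library allows up to 0.396 counts per 1000000 of its unadjusted total, for counting error only.

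Among genes of interferon receptors and Janus kinases, with stroke under vehicle Jak2 (0.86 ± 0.16) and the receptor chain Ifnar1 (0.32 ± 0.11) rose and Ifngr1, of the receptor for interferon gamma, fell (-1.13 ± 0.12). Under bexarotene the values were 0.87 ± 0.16, 0.34 ± 0.11 and -1.12 ± 0.12, and Jak1 also fell (-0.25 ± 0.08).

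Of 13 genes of nucleic acid sensing upstream of interferon, none was called with age. With stroke under vehicle 4 rose and 4 fell, while 27.2% of all genes were called higher and 21.1% lower. Those that rose were the kinase Ikbke (5.04 ± 0.36), the RNA sensor Rigi (1.44 ± 0.13), the DNA sensor Cgas (0.95 ± 0.17) and the adaptor Myd88 (0.76 ± 0.11). Those that fell were the adaptors Sting1 (-0.86 ± 0.16) and Mavs (-0.79 ± 0.12), the kinase Tbk1 (-0.34 ± 0.11) and Unc93b1, which guides Toll-like receptors (-0.48 ± 0.08). Under bexarotene, where 26.8% of all genes were called higher and 21.2% lower, the same 8 genes were called, at 4.38 ± 0.33, 1.29 ± 0.13, 0.48 ± 0.17 and 0.45 ± 0.11 for those higher. Those lower were at -0.69 ± 0.15, -0.66 ± 0.12, -0.30 ± 0.11 and -0.55 ± 0.08. In treated aged against young vehicle mice Ikbke (2.12 ± 0.51) and Mavs (0.46 ± 0.12) rose.

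Of 13 genes that limit interferon signalling, 12 were tested, and Trex1 is listed at 0 in every library, where a true absence and an effect of the annotation or the counting cannot be told apart. None was called with age. With stroke under vehicle 8 rose, with Socs3 (2.96 ± 0.21) and Socs1 (1.41 ± 0.27), which block Janus kinases, Samhd1 (2.18 ± 0.23), which depletes nucleotides, and the RNA editor Adar (1.22 ± 0.11) among them. The others were Rnaseh2b (1.20 ± 0.18), Rnaseh2c (0.42 ± 0.15), Ptpn11 (0.66 ± 0.14) and Ptpn2 (0.40 ± 0.12). Pias1 (-0.61 ± 0.09) and Pias3 (-0.63 ± 0.15), inhibitors of activated STAT factors, fell. Under bexarotene 6 rose, Socs3 (2.45 ± 0.20), Samhd1 (1.88 ± 0.22), Rnaseh2b (1.08 ± 0.18), Adar (1.03 ± 0.11), Rnaseh2c (0.40 ± 0.15) and Ptpn11 (0.33 ± 0.13), and Pias1 (-0.71 ± 0.09) and Pias3 (-0.54 ± 0.15) fell. With bexarotene in any setting neither Ifnb1 nor any of the receptor and kinase genes, 13 sensing genes or 12 limiting genes was called by edgeR.

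The authors' deposited tables list genes under an adjusted p of 0.05 in their own comparisons. Their age table held 28 members among 451 genes, all with a positive log2 fold change. Their table for bexarotene in young mice listed Trim25 (0.48) among 197 genes, and that for aged mice no member among 149. In the authors' deposited table for bexarotene after stroke, 3 members were among 96 genes: Iigp1 at -0.91, Gbp5 at -0.89 and Ifit2 at -0.60. Every gene of these authors' deposited tables had the same sign in the edgeR fit here.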

How the data were processed

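RNA of 18 libraries was measured by SMART-Seq v4 PLUS sequencing, per the labels' protocols. The authors deposited whole-number counts per Ensembl gene, without normalization. Per the submitters' processing notes, the build was GRCm39 and the tools named are Trimmomatic 0.40, STAR 2.7.10a, GATK and R 4.4.2. Which step each tool did, the annotation and the strand setting were not stated, so overlapping or near-identical genes may share reads. The authors' deposited tables of 4 comparisons list, for genes with an adjusted p below 0.05 only, log2 fold changes and p-values, of which the log2 values were used here. Symbols came from GENCODE M21 (52029 of 57010 genes, 52033 with the authors' tables), and the 4977 genes without a symbol held 0.326% of counts.

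The test was edgeR 4.0.16 in R 4.3.3 (filterByExpr, TMM, 1 robust quasi-likelihood model over 18 libraries with 12 residual degrees of freedom, Benjamini-Hochberg adjustment over 15528 genes, calls at an adjusted p under 0.05). A log2 fold change is given ± its SE, computed as its size over the root of F, with 3 libraries per group, and the code was tested on simulated data. DESeq2 1.42.0, limma 3.58.1 voom, other scalings, no filter, the groups compared alone, a replicate block, left-out libraries and a choroid plexus covariate were alternatives, the last of these and the summary of the members' median having been chosen after seeing the data. Members named in every comparison were Usp18, Oas1a, Oasl2, Ifit3, Isg15, Bst2, Ifitm3, Ifi27l2a, Stat2, Zbp1, Rsad2, Gbp2 and Ly6e. To these were added, per comparison, up to 3 called members with the lowest p in each role group and of each sign where the higher group averaged 10 CPM or more, up to 3 of opposite sign to the median and, where none was called, the 5 with the lowest p. From the pathway lists the called genes were named, except for 1 gene that is not reported here, and any other named gene was chosen after its values were seen. The members and lists were chosen with earlier results of these data known.

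Replicates of a group differed by more than sampling noise (chi-square per degree of freedom 6.19 to 40.3). Same-numbered libraries deviated together, with every correlation above 0.1, for bexarotene in young mice (0.25, 0.26 and 0.13), treated aged against young vehicle (0.25, 0.26 and 0.11) and aged against young bexarotene (0.11, 0.27 and 0.12), a pairing that comes from the data and not from the labels.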

Additional observations from a re-analysis of the deposited data

How the results depend on the processing

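The counts of members called with stroke, 53 under vehicle and 50 under bexarotene, stayed between 52 and 53 and between 50 and 51 when 1 library was left out. With age 16 to 22 members were called in such fits (median 0.61 to 0.98), 13 to 22 for treated aged against young vehicle and 2 to 10 for aged against young bexarotene. Over all genes, in the same order, 126 to 255, 209 to 414 and 82 to 117 were called in them. The median for bexarotene after stroke ran from -0.50 to -0.14.

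Without a low-count filter edgeR called 33 members with age, 5 with bexarotene in young mice, 1 in aged mice (Ifit1) and 17 after stroke, 35 for treated aged against young vehicle, 31 for aged against young bexarotene and 6 for the difference with stroke. More genes, 31653, were then tested, and in the same order 677, 457, 339, 419, 931, 683 and 256 of them were called. The cause was not tested further. DESeq2 called 1 member (Trim25) with bexarotene in young mice, 1 after stroke and 19 for aged against young bexarotene, where limma voom called 2. After stroke voom called 2 with bexarotene, and edgeR on the groups alone 1.

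Without the 6 libraries numbered 1, 12 members (107 of all 15410 genes) were called with age, 10 (173 genes) for treated aged against young vehicle and 0 (53 genes) for aged against young bexarotene, with fewer samples in the fit. The medians were then 0.52 and 0.44 for the latter pair, -0.038 for bexarotene after stroke, 2.61 for stroke under bexarotene and 0.10 for the difference of the bexarotene effect with stroke. These signs turned in that fit: Parp14 with age (0.096), Ifi27l2a (-0.21) and Ly6e (-0.022) with bexarotene in young mice, and Gbp2 in aged mice (-0.11). After stroke Oas1a (0.063), Oasl2 (0.035), Ifitm3 (0.13) and Rsad2 (0.15) turned with bexarotene. Gbp7 turned with stroke under bexarotene (0.17), and Ly6e for treated aged against young vehicle (-0.044) and aged against young bexarotene (-0.022). Gbp3 with age was 0.0089 by DESeq2, 0.0083 with RLE factors and 0.0158 without a filter.

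None of these sign changes belonged to a called value. Leaving out 1 library gave -0.12 to 0.097 for Gbp3 and -0.29 to 0.13 for Parp14 with age, and -0.31 to 0.68 for Ifi27l2a and -0.097 to 0.13 for Ly6e with bexarotene in young mice. In aged mice it gave -0.36 to 0.017 for Oas1a, -0.23 to 0.18 for Oasl2, -0.32 to 0.012 for Ifit3, -0.042 to 0.11 for Stat2, -0.14 to 0.35 for Zbp1 and -0.092 to 0.45 for Gbp2. After stroke it gave -0.19 to 0.0022 for Oas1a and -0.35 to 0.031 for Ifitm3 with bexarotene, and -0.31 to 0.035 for Gbp7 with stroke under bexarotene. Ly6e ran from -0.036 to 0.18 for treated aged against young vehicle and from -0.033 to 0.14 for aged against young bexarotene.

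With the replicate number as a block, 20 members were called with age, 53 and 50 with stroke, 21 for treated aged against young vehicle, 10 for aged against young bexarotene and 0 with bexarotene in any setting; apart from Zbp1 and Iigp1 as given above, no call of a paired comparison was lost. Of the other comparisons, each had at least 1 of 3 correlations under 0.1 (with age 0.36, 0.21 and -0.02), so their numbers were not taken as a pairing.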
